A study of Homo sapiens with 8 samples.

Results

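SEC16B and 9 genes of the COPII coat were followed in B-lymphoma cells kept with the ligand APRIL or with the control ligand EDA. The 10 genes are SEC16A, SEC16B, SEC23A, SEC23B, SEC24A, SEC24B, SEC24C, SEC24D, SEC31A and SAR1B. They were taken by symbol from the 33616 genes whose array rows carry exactly 1 gene symbol, and each gene is represented by its row with the highest mean. All 10 were measured, and no filter on dim genes was applied. The set was chosen by a measured value of SEC16B, its adjusted p for APRIL against EDA in HBL-1. It was the single gene past 0.05 there, so that difference is given below as a description with no test. The other 9 were added as its family and partners.

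The RNA came from 2 human B-cell lymphoma lines with 2 arrays in each of 4 groups: HBL-1 with APRIL, HBL-1 with EDA, BJAB with APRIL and BJAB with EDA. Each ligand was given at 1 µg/ml for 6 h, the labels name EDA as the control, and every culture received a ligand, so cells without one were not analysed here. HBL-1 belongs to the activated B-cell class of diffuse lymphoma, while BJAB is counted with the germinal-centre class. APRIL, of the tumour necrosis factor family, binds the receptors BCMA and TACI. Separate cultures for the arrays of 1 group are not stated in the labels, so p-values measure a spread between arrays that may be technical.

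Proteins made for secretion or for the cell surface leave the endoplasmic reticulum (ER) in vesicles coated with COPII. The GTPase SAR1 opens the cycle, the SEC23 and SEC24 dimer forms the inner layer and picks cargo, SEC13 and SEC31 form the outer cage, and SEC16 proteins mark the exit sites where this happens. Plasma cells enlarge this route to export antibody. SEC16B is the shorter paralogue of SEC16A and is best known from liver, intestine and genetic studies of body weight.

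Arrays were alike within a line, with correlations of 0.988 to 0.993 over all genes between arrays of 1 line and of 0.942 to 0.946 between lines. The B-cell markers CD79A (15.39 to 16.08 over the 8 arrays, log2 signal), CD79B (16.56 to 17.01), PAX5 (13.59 to 14.21) and MS4A1 (9.79 to 12.75) were all measured well above the background rows, whose array medians ran from 3.57 to 3.77. List means of other cell types were 4.80 to 5.84 for T and NK cells, 4.47 to 4.96 for myeloid cells and 4.71 to 5.44 for epithelial cells. The brightest single genes of these lists were CD3E (6.50 to 8.21), KRT8 (7.14 to 7.68) and NKG7 (6.11 to 7.46). The fibroblast list was brighter, at 8.48 to 10.04, and its 3 genes did not go 1 way. DCN, a matrix proteoglycan, lay between 5.81 and 6.30 in HBL-1 and between 12.42 and 12.74 in BJAB. The collagen genes lay mostly higher in HBL-1, with COL1A2 between 9.28 and 10.82 there and between 8.05 and 8.24 in BJAB, and COL1A1 between 9.65 and 10.65 there and between 8.82 and 9.66 in BJAB. The part of this list in the differences between lines was not tested. Over all genes the median of APRIL minus EDA in HBL-1 was 0.10, and APRIL replicate 2 had the highest gene median, 5.74, where the other 7 arrays lay between 5.58 and 5.66. That array stands apart.

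SEC16B had its highest signal in HBL-1 cells with APRIL. With APRIL, HBL-1 cells had log2 signals of 7.13 and 7.35, against 5.25 and 5.18 with EDA. The 2 groups did not overlap, APRIL being the higher, and the smallest of the 4 array-to-array differences was 1.88. On average the APRIL arrays were 2.02 higher (SE 0.20, n = 2 and 2; 95% confidence interval 1.58 to 2.47), or 4.07-fold on the linear scale. It was the only call in this comparison, 0.00297% of the genes tested, and the same call chose the gene. The call was lost in 12 of 17 alternatives, among them leaving out any 1 of the 8 arrays and the replicate block. The values on either side of that threshold were an adjusted p of 0.0491 for SEC16B and 0.228 for TRAJ30, a joining segment of the T-cell receptor alpha locus. Without HBL-1 APRIL replicate 2 the difference was 1.91, and it was 1.97 after another quantile normalization. Both reuse the values that chose the gene, so they are a description, and the choice may make the size too high.

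In BJAB, which did not enter the choice, SEC16B was at 4.66 and 4.57 with APRIL, against 4.43 and 4.38 with EDA. The groups did not overlap, with APRIL the higher, as was also so for 17.3% of all genes in that direction. The difference was 0.21 (95% confidence interval -0.23 to 0.66, limma adjusted p = 1). It did not pass the test, and the upper limit of the interval is a 1.58-fold rise in array signal. Whether the response of HBL-1 differs from that of BJAB was not tested, because the HBL-1 response chose the gene. The signals in BJAB were near the array background, which limits how small a level can be read and may make the fold understate a change.

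Between the lines, SEC16B was higher in HBL-1. The 4 HBL-1 arrays lay between 5.18 and 7.35 and the 4 BJAB arrays between 4.38 and 4.66, with no overlap. The difference averaged over both ligands was 1.72 (95% confidence interval 1.40 to 2.03, limma adjusted p = 7.58e-06), or 3.29-fold in array signal. Against BJAB signals this near the background, the fold may understate the difference. This average does not use the difference between ligands that chose the gene, although the small spread of SEC16B between replicates entered both. As a description that reuses the arrays of the choice, it was 2.62 under APRIL alone and 0.81 under EDA alone (95% confidence interval 0.36 to 1.26). Markers of liver and intestine, tissues where SEC16B is high, overlapped between the HBL-1 groups, with list means of 4.66 to 5.20 with APRIL and 4.71 to 4.87 with EDA over ALB, APOA1, APOB and FABP1.

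**Figure D1:**
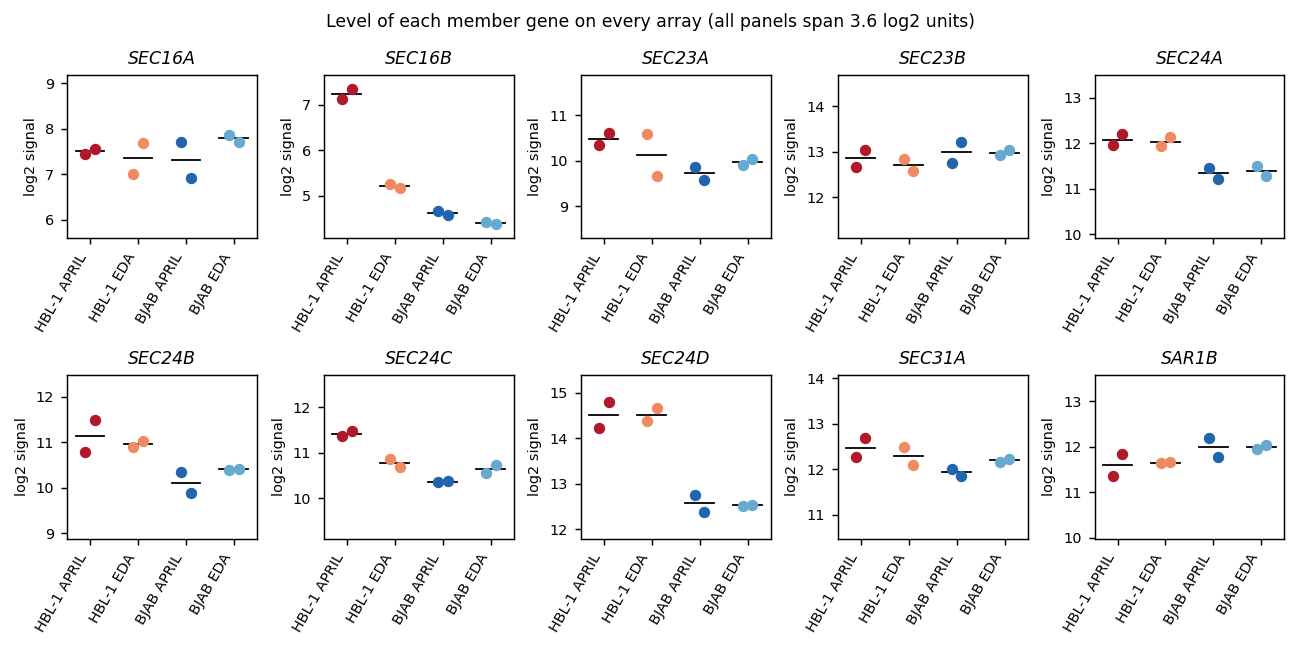
Log2 signal of each gene on every array (points) with the group mean (bar), for HBL-1 APRIL, HBL-1 EDA, BJAB APRIL and BJAB EDA from left to right. SEC16B stands at 7.13 and 7.35 in HBL-1 with APRIL and at 5.25 and 5.18 with EDA, and SEC24D separates the lines under both ligands.

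The promoter of SEC16B is shown because an ER stress motif stands close to its first listed start. RefSeq (GRCh38.p14) lists 3 starts for SEC16B, and the window from 250 bases before to 50 bases after the first one is chr1:177984235-177984534 on the minus strand. It is written below 5′ to 3′, and the capitals mark TGACGTGG, the core of the element that the unfolded protein response factors XBP1 and ATF6 are known to bind.
SEC16B promoter: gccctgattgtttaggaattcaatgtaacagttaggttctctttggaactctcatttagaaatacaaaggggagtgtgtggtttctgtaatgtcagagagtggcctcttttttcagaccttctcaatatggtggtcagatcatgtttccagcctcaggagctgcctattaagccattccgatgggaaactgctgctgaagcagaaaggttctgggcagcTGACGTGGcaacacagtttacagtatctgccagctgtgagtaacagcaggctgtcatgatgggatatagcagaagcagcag
The match begins 31 bases before the start. The windows of the other 2 listed starts hold no match, and the array row does not show which start was used.

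The same 8 letters were looked for in the windows of all members on both strands. Windows were at hand for 9 members, with 17 starts in all. SEC16A, SEC16B, SEC23A and SEC24A held TGACGTGG in 1 window each. Over all genes of the promoter table, 253 of 27305 (0.927%) had it in at least 1 window. The 4 stretches are set side by side, each read along the strand of its gene with 20 bases on either side and the match in capitals (in SEC16A it lies on the opposite strand and reads CCACGTCA).
SEC16B chr1:177984288-177984335: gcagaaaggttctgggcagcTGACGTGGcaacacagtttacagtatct
SEC23A chr14:39103212-39103259: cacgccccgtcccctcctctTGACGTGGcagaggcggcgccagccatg
SEC24A chr5:134648586-134648633: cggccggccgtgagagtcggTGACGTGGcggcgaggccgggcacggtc
SEC16A chr9:136484698-136484745: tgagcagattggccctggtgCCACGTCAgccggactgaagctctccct
SEC24A is on the plus strand and the other 3 genes on the minus strand. In SEC23A the match begins 4 bases before the start and runs across it, in SEC24A it begins 179 bases before, and in SEC16A it begins at base 16 after the start. Of these 4 genes, SEC16B and SEC24A passed between the lines, and SEC16A and SEC23A did not. No window of a member held the longer ER stress response element, CCAAT followed after any 9 bases by CCACG (0.0916% of all genes), or the cAMP response element TGACGTCA (2.25%), which shares its first 6 letters with the core above. The kappaB consensus of NF-kB, searched in its usual degenerate form, was in a window of SEC16A, SEC24A and SAR1B, and in 13.3% of all genes.

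**Figure D2:**
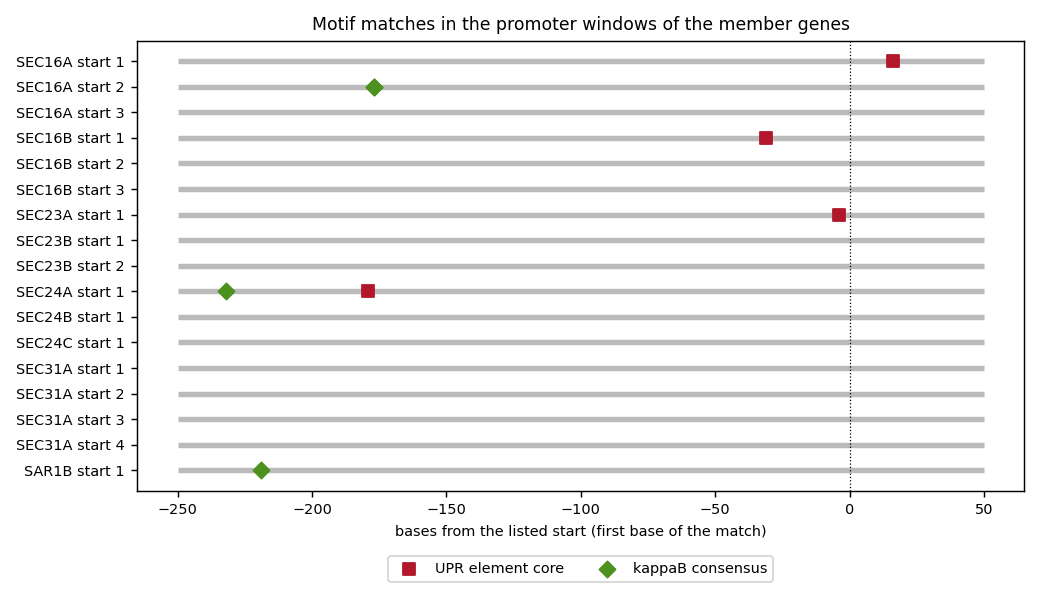
Position of motif matches (first base) in the 17 promoter windows of 9 members, in bases from the listed start, with grey bars for the windows searched. The core of the unfolded protein response element (squares) lies 31 bases before the first start of SEC16B and in 1 window each of SEC16A, SEC23A and SEC24A, and kappaB matches (diamonds) lie in SEC16A, SEC24A and SAR1B.

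SEC16A, the large scaffold of the exit sites, did not pass in any tested comparison. It was at 7.45 and 7.56 in HBL-1 with APRIL, against 7.01 and 7.70 with EDA, and the APRIL arrays lay inside the range of the EDA arrays (difference 0.16, 95% confidence interval -0.52 to 0.84). In BJAB it was at 7.71 and 6.93 with APRIL, against 7.86 and 7.72 with EDA. The 2 BJAB groups did not overlap, but the gap was 0.01, and the difference of -0.47 (limma adjusted p = 1) was -0.08 without BJAB APRIL replicate 2. Between the lines its difference was -0.12 (95% confidence interval -0.60 to 0.36, limma adjusted p = 0.763).

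The 4 SEC24 genes encode the subunit that reads sorting signals on cargo, with SEC24A and SEC24B as 1 subgroup and SEC24C and SEC24D as the other. All 4 were higher in HBL-1 than in BJAB over both ligands. SEC24D was at 14.23 and 14.81 with APRIL and at 14.38 and 14.66 with EDA in HBL-1, and BJAB was at 12.76 and 12.38 with APRIL and at 12.52 and 12.55 with EDA. Its difference was 1.97 (95% confidence interval 1.57 to 2.37, limma adjusted p = 1.61e-05), or 3.91-fold, and no array of a line overlapped the other line. For SEC24D, APRIL minus EDA was 0.00 in HBL-1 (95% confidence interval -0.56 to 0.57) and 0.04 in BJAB (-0.53 to 0.61).

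SEC24A lay between 11.93 and 12.20 in HBL-1 and between 11.22 and 11.49 in BJAB. Its arrays did not overlap between lines, and the difference was 0.69 (SE 0.15, limma adjusted p = 0.00695). SEC24B lay between 10.79 and 11.48 in HBL-1 and between 9.88 and 10.42 in BJAB, again with no overlap, and differed by 0.79 (SE 0.19, limma adjusted p = 0.0112). Under EDA alone neither passed, with 0.65 for SEC24A (limma adjusted p = 0.0739) and 0.56 for SEC24B (limma adjusted p = 0.228).

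SEC24C was higher with APRIL in HBL-1 and lower with APRIL in BJAB on every array, although only the BJAB difference was tested and it did not pass. In HBL-1 it was at 11.36 and 11.47 with APRIL, against 10.87 and 10.68 with EDA, so both APRIL arrays were higher (difference 0.64, 95% confidence interval 0.19 to 1.09). In BJAB it was at 10.35 and 10.39 with APRIL, against 10.55 and 10.72 with EDA, and both APRIL arrays were lower (difference -0.27, 95% confidence interval -0.72 to 0.18, limma adjusted p = 1). The averaged line difference was 0.59 (SE 0.14, limma adjusted p = 0.0114), but it was 1.05 under APRIL and 0.14 under EDA (limma adjusted p = 0.760), and without BJAB EDA replicate 1 the average missed the threshold at 0.0537. The HBL-1 difference was 0.55 without HBL-1 APRIL replicate 2 and 0.42 after another quantile normalization.

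SEC23A and SEC23B, the inner-layer partners that switch on the GTPase activity of SAR1, did not pass in any tested comparison. Mutations of SEC23B cause an inherited anaemia and those of SEC23A a disorder of skull development. SEC23A was at 10.36 and 10.61 in HBL-1 with APRIL, against 10.60 and 9.67 with EDA, and the wide EDA pair set much of its error (difference 0.35, 95% confidence interval -0.32 to 1.01). Between the lines it differed by 0.46 (95% confidence interval -0.01 to 0.92, limma adjusted p = 0.163), and without HBL-1 EDA replicate 2, its lowest HBL-1 value, by 0.69 with a limma adjusted p of 0.0223. SEC23B lay between 12.59 and 13.05 in HBL-1 and between 12.77 and 13.22 in BJAB, and the lines overlapped (difference -0.20, limma adjusted p = 0.492).

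SEC31A, the rod of the outer cage, lay between 12.11 and 12.69 in HBL-1 and between 11.86 and 12.23 in BJAB. Its line difference was 0.32 (95% confidence interval -0.05 to 0.69, limma adjusted p = 0.217), and it passed at 0.0490 after cyclic loess, with a difference of 0.44. SAR1B, the GTPase form whose loss causes a disorder of chylomicron secretion, lay between 11.36 and 11.84 in HBL-1 and between 11.78 and 12.20 in BJAB. Of the 16 pairs of an HBL-1 with a BJAB array, HBL-1 was the higher in 1 for SAR1B (difference -0.37, limma adjusted p = 0.160). A second row with the symbol SAR1B lay between 3.47 and 5.16 over the 8 arrays, near the background rows, and was not used.

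Counted together, 5 of the 10 genes were higher in HBL-1 than in BJAB at an adjusted p under 0.05 and 0 were lower (0 at an unadjusted p under 0.05 in that direction as well). Over all genes 24.2% were called, 10.3% higher and 13.9% lower, and 32.9% were under 0.05 without adjustment. The members other than SEC16A and SEC16B lay in deciles 9 and 10 of mean level over all genes. With dim genes (below percentile 50, SEC16B among them) left out, 3239 genes were still called higher and 4523 lower, beside 4 of 9 members higher and 0 lower. The shares over all genes are therefore low for genes as bright as most members. The number of members called is thus not read as high for their level. The 5 members called higher are SEC16B and the 4 SEC24 genes, and the count was also 5 without HBL-1 APRIL replicate 2 and 5 under APRIL alone. Under EDA alone it was 2, SEC16B and SEC24D. SEC16B is in both single-ligand counts as a description only, since they reuse the arrays of its choice. The median difference was 0.53 over the 10 genes and 0.01 over all genes. For 4 of the 10, the 4 arrays of HBL-1 all lay above the 4 of BJAB, which held for 11.5% of all genes.

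**Figure D3:**
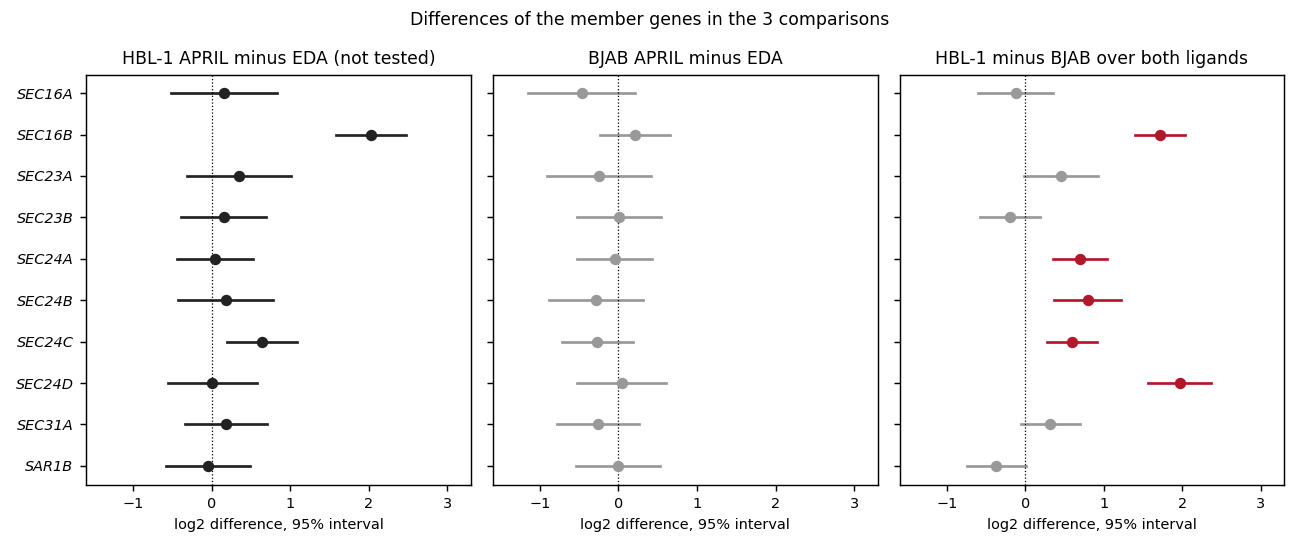
Log2 difference (point) with its 95% confidence interval (line) for each gene in the 3 comparisons. Red marks genes higher at an adjusted p under 0.05, grey genes that did not pass, and black the comparison that chose SEC16B, which carries no test. SEC16B alone lies near 2.02 in HBL-1, and SEC16B and the 4 SEC24 genes are red between the lines.

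The ligand gave no other call. In BJAB 0 of the 10 genes passed with limma, and 0 of 33616 genes did (0%), with 0 of the 10 and 1365 genes (4.06%) at an unadjusted p under 0.05. There, 5 of the 10 were lower with APRIL on both arrays (SEC16A, SEC23A, SEC24B, SEC24C and SEC31A), against 17% of all genes, and the median difference was -0.15 against 0.00 over all genes. BJAB APRIL replicate 2 was the lowest BJAB array for 7 of the 10 genes and for 29.5% of all genes. Without it the differences were -0.06 for SEC24B and -0.11 for SEC23A, against -0.29 and -0.25 with it. SEC24C and SEC31A moved less, from -0.36 to -0.18 and from -0.34 to -0.18 with any 1 array left out.

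With SEC16B, which this difference chose, left out, APRIL minus EDA in HBL-1 was positive for 8 of 9 genes, beside 63.7% of all genes. The median of these members was 0.16 against 0.10 over all genes. In deciles 9 and 10 of mean level, which hold the members other than SEC16A and SEC16B, the medians over genes were 0.22 and 0.14. The highest HBL-1 value was in APRIL replicate 2 for 9 of the 10 (all but SEC16A) and for 47% of all genes. The count of positive members turned on scaling. After another quantile normalization the median over all genes was 0.00, that of the 10 genes was -0.02 and 4 of the 10 were positive, SEC16B among them, and after cyclic loess 5 were. SEC24A, SEC24B, SEC24D, SEC23B and SEC31A then had the opposite sign, between -0.14 for SEC24A and -0.0017 for SEC31A, while SEC16B stood at 1.97 and SEC24C at 0.42. Apart from SEC16B, 1 of 9 genes, SEC24C, had both APRIL arrays above both EDA arrays, as had 25.4% of all genes. The share of all genes at an unadjusted p under 0.05 was 8.83%.

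Genes that work beside the coat were counted from 6 lists with 97 entries, of which 94 were measured. None passed for APRIL against EDA, with 0 of 94 in HBL-1 and 0 of 94 in BJAB by limma (8 and 1 at an unadjusted p under 0.05, where all genes gave 8.83% and 4.06%). Between the lines 20 were higher and 23 lower in HBL-1, beside 10.3% and 13.9% of all genes. Most listed genes were bright, and the calls over all genes lay mostly among brighter genes, so these shares are a low background for the lists. The share called among genes of like level was not computed, so 20 and 23 are not read as a high number of calls. Of 17 genes of the translocon and signal peptidase, 8 were higher in HBL-1 and 0 lower (median 0.43), led by SEC61A1, the channel through which nascent chains pass (12.44 against 10.76 in BJAB, limma adjusted p = 7.13e-05), and SPCS3, a signal peptidase subunit (15.37 against 14.08). The count for this list was 12 after another quantile normalization and 7 without HBL-1 APRIL replicate 2. Of 23 cargo receptors, 1 was higher and 11 lower (median -0.39). LMAN1, which carries clotting factors and other glycoproteins, was higher by 1.01, while SURF4, a receptor for soluble cargo, differed by -1.47 and ERGIC1 by -1.35.

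Among 14 partners and regulators of COPII, 1 was higher and 3 lower, and 2 were higher after each of the 3 other scalings. PREB, the exchange factor that loads SAR1 with GTP, averaged 11.42 in HBL-1, against 12.92 in BJAB (difference -1.50, limma adjusted p = 2.73e-05). CUL3, the ubiquitin ligase scaffold that acts on SEC31A, differed by -0.80, and TFG, which organises the exit sites, by 0.59. Of 29 tethers and SNAREs of the step to the Golgi, 6 were higher and 7 lower, with TRAPP subunits in both directions. By smallest p, TRAPPC4 (1.92) and TRAPPC10 (1.58) led those higher, and TRAPPC11 (-2.86) and TRAPPC12 (-1.39) those lower. Without HBL-1 APRIL replicate 2 the list had 4 higher and 7 lower, and its median of -0.08 was 0.02 after another quantile normalization.

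Of 8 transcription factors known to act on COPII genes, 3 were higher and 1 lower (median 0.07), and 2 were higher without HBL-1 APRIL replicate 2 (median -0.03). CREB3L2, which in mouse cartilage switches on SEC23A, averaged 13.48 in HBL-1, against 8.56 in BJAB (difference 4.92, 95% confidence interval 4.54 to 5.31, limma adjusted p = 1.14e-08). ATF4 differed by 0.56 and ATF6B by -0.57, both past the threshold. XBP1 did not pass (12.52 against 12.46 in BJAB), nor did SEC23A, as above. Of 3 peroxisomal proteins linked to SEC16B, which takes part in moving PEX16 out of the ER, PEX16 was higher by 0.68 (limma adjusted p = 0.0416), PEX3 differed by -0.66 (limma adjusted p = 0.0198) and PEX19 did not pass. With HBL-1 APRIL replicate 2 left out, 0 of these 3 were higher and 1 was lower.

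**Figure D4:**
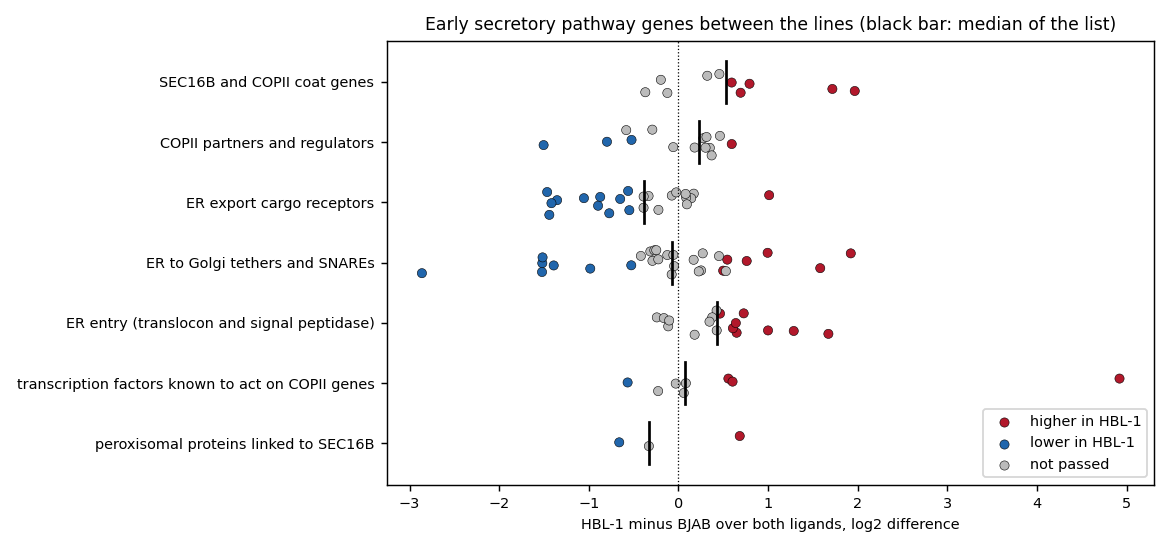
Log2 difference of HBL-1 minus BJAB over both ligands for the members and for 6 lists of early secretory genes (1 point per gene, black bar at the median of the list, vertical scatter only to separate points). Red and blue mark genes higher and lower in HBL-1 at an adjusted p under 0.05. Of 17 ER entry genes 8 are red and 0 blue, and of 23 cargo receptors 1 is red and 11 are blue.

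The genes whose pattern over the 8 arrays came closest to SEC16B were not coat genes. Likeness was the root-mean-square difference of log2 signals after each gene's own mean was taken off, over 17337 protein-coding genes. Both the difference between the lines and the HBL-1 difference that chose SEC16B enter it, so it is not independent of the choice. MB21D2 was closest (0.33), followed by the Ral exchange factor RGL1 (0.35), the read-through gene CCDC169-SOHLH2 (0.38), the inositol oxygenase MIOX (0.38) and the small GTPase RAB38 (0.41). APRIL minus EDA in HBL-1 was 1.61 for MB21D2, 1.39 for RGL1, 1.03 for MIOX and 0.99 for RAB38, and in BJAB these 4 ran from -0.12 to 0.14. CCDC169-SOHLH2 was at 4.98 and 5.23 in HBL-1 with APRIL, against 3.89 and 3.44 with EDA, and between 3.02 and 3.44 in BJAB, so its lower levels were at or near those of the background rows and no size is given. The closest coat genes were SEC24D (0.74) and SEC24C (0.77), at ranks 844 and 1037 in closeness among the protein-coding genes, and SAR1B was the farthest (1.28).

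**Figure D5:**
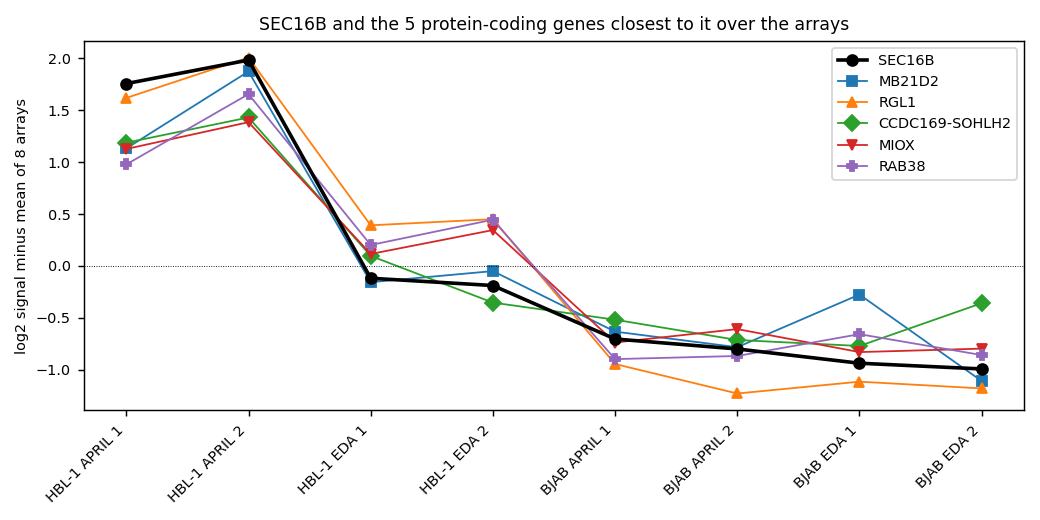
Log2 signal minus the mean of 8 arrays for SEC16B (black) and the 5 protein-coding genes closest to it, with the arrays of each group side by side. All 6 genes are highest on the 2 arrays of HBL-1 with APRIL, and the root-mean-square difference from SEC16B runs from 0.33 to 0.41.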

How the data were processed

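Total RNA from HBL-1 and BJAB was labelled with biotin and hybridised to 8 arrays. The authors deposited RMA values on a log2 scale. Per the submitters' processing notes this ran in Expression Console, with no version given. That scale was read from the values, which run from 2.36 to 19.38. RMA includes quantile normalization, and the annotation release and build are not given in the sources used here. Arrays have no read depth, so their number limits the precision, with a median 95% interval half-width of 0.55 within a line and 0.39 between lines.

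Of 138745 rows, 36176 carry 1 symbol, 1119 several and 101450 none. The brightest row was taken for each of 33616 genes. A model with a mean for each group was fitted to all genes in limma 3.58.1 (R 4.3.3; lmFit and eBayes), and two-sided p-values were adjusted by Benjamini-Hochberg over all genes. The fit was tested on simulated data. The lines were compared by their average over both ligands, which is orthogonal to the ligand difference that chose SEC16B. The spread of SEC16B between replicates entered both. Named genes were the members, the 2 smallest p-values per direction of each list (or the smallest where none passed), the 5 genes most like SEC16B and its 3 nearest measured neighbours on each side. Members and lists were chosen with earlier results of these data known. Replicate numbers did not pair the arrays: deviations of equal numbers correlated at -0.02 to 0.06. Promoter sequences are from RefSeq, GRCh38.p14. Alternatives were 3 scalings, a filter on dim genes, other row choices, a variance trend, fewer arrays, a replicate block and each ligand alone.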

Additional observations from a re-analysis of the deposited data

Results flagged for a closer look

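SEC24C drew attention because APRIL and EDA separated in opposite directions in the lines: both APRIL arrays were above both EDA arrays in HBL-1 and below them in BJAB. The HBL-1 difference minus the BJAB difference was 0.909 on the log2 scale. Whether the responses of the lines to APRIL differ was not tested. Over all genes, 5.49% (1845 of 33616) showed such opposite, non-overlapping groups.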

How the results depend on the processing

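With 2 arrays per group, only large differences within a line can pass. The SEC16B difference in HBL-1 ran from 1.91 to 2.14 over 16 alternatives, and leaving out dim genes removed SEC16B itself. As the only call in HBL-1 it was lost, giving 0 genes, with dim genes left out, with every row tested, with the arrays of HBL-1 alone, with the replicate block, and with any of the 8 arrays left out (0 to 0). It was kept under 3 scalings, with the variance trend and with rows averaged. Between the lines the members called higher numbered 4 to 6 with 1 array left out, 5 with the replicate block and 2 under EDA alone, where all genes called higher numbered 2091 against 3473 over both ligands. Under APRIL alone all genes called lower numbered 2932, against 4662. Both of these use 4 of the 8 arrays. SEC24D passed in every alternative, and SEC16B in every alternative over both ligands that tested it. For SEC16B the comparisons under a single ligand reuse the arrays of its choice, so they are a description and no test.

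For APRIL minus EDA in HBL-1, which carries no test, the sign turned in at least 1 alternative for 8 of the 10 genes, all but SEC16B and SEC24C. Examples are SAR1B at 0.38 with rows averaged, SEC16A at -0.19 without HBL-1 EDA replicate 1 and SEC23A at -0.12 without HBL-1 EDA replicate 2. In the tested comparisons, signs turned for differences that did not pass. Between the lines SEC16A was 0.19 under APRIL alone and -0.32 to 0.0728 with 1 array left out. For APRIL minus EDA in BJAB, SEC23B was -0.0326 when quantile normalization was repeated and -0.0320 with cyclic loess, SEC24D was -0.00087 after quantile normalization, and SAR1B was 0.0152 with equal medians. With 1 array left out SEC23B ran from -0.22 to 0.23, SEC24A from -0.17 to 0.0689, SEC24D from -0.15 to 0.23 and SAR1B from -0.22 to 0.20. The cause was not tested. Among the members the replicate block changed no other call. Over all genes it gave 3395 higher and 4601 lower between the lines, against 3473 and 4662 without it.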

Other observations

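None of the 6 measured neighbours of SEC16B on chromosome 1 passed for APRIL against EDA. CRYZL2P, which RefSeq also joins to SEC16B in a read-through gene, was at 6.44 and 6.22 in HBL-1 with APRIL, against 6.36 and 6.84 with EDA (difference -0.27). The array row of SEC16B may also measure that read-through. RASAL2, a Ras GTPase-activating protein, was lower in HBL-1 than in BJAB by a difference of -1.41 (limma adjusted p = 1.00e-04). RASAL2-AS1, its antisense gene (limma adjusted p = 0.00762), and MIR488 (limma adjusted p = 0.0329) were also lower in HBL-1. Their HBL-1 signals, 3.15 to 3.50 for RASAL2-AS1 and 2.93 to 3.19 for MIR488, were below the background-row medians, so no size is given. BRINP2 and ASTN1, on the same side as MIR488, lay between 3.41 and 4.45 over the 8 arrays and did not pass between the lines.

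Among the lists, the smallest p-values for APRIL against EDA in HBL-1 belonged to genes that did not pass. PEF1, a calcium-binding partner of the ligase that acts on SEC31A, was at 6.15 with APRIL and 5.13 with EDA (limma adjusted p = 0.485), the p24 cargo receptor TMED1 at 9.23 and 8.33 (limma adjusted p = 0.487), and the Golgi SNARE STX5 at 7.27 and 6.54 (limma adjusted p = 0.534). SEC61A1 (0.49), ATF6 (0.32) and PEX16 (0.63) were first in the other lists. In BJAB these were MIA3 (0.36), CNIH2 (-0.76), TRAPPC2 (0.33), SEC61B (0.25), CREB3L3 (0.43) and PEX19 (-0.29), each with a limma adjusted p of 1.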
